A study of Mus musculus with 10 samples.

Results

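The nuclear genes of respiratory complexes II, III, IV and V, with the electron carrier cytochrome c, were examined in mouse hearts that overexpress SPOP. Members were taken by symbol from the protein-coding rows of the gene table: Sdha to Sdhd, Cyc1, Cycs, and every gene whose symbol begins with Uqcr, Atp5 or Cox followed by 4 to 8. This gave 48 of the 24888 genes in the table, of which 4 belong to complex II, 9 to complex III, 1 encodes cytochrome c, 17 belong to complex IV and 17 to complex V. The symbol rule used no measured value. It leaves out subunits made from mitochondrial DNA and assembly factors, which are described separately, and it takes in Atp5s and Cox7a2l, which act on ATP synthase and on the joining of complexes into larger assemblies.

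RNA from heart tissue was sequenced in 5 SPOP_CKI libraries and 5 Cre_control libraries. The SPOP_CKI hearts overexpressed SPOP, the substrate adaptor of a cullin ubiquitin ligase, through Cre recombinase driven by the αMHC (Myh6) promoter, which is active in cardiomyocytes. The Cre_control hearts, titled WT with the genotype Myh6Cre, also carried Cre, so both groups share the recombinase. All animals were described as male mice of 8 to 10 weeks in the sham arm, and the tissue was whole heart RNA rather than sorted cells. Nothing in the labels ties hearts to litters or preparation batches, and a p-value here therefore reflects library-to-library spread, which may be technical.

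Depth lay between 15316293 and 17114869 reads per library. Values are given as scaled reads, the authors' read counts over a size factor per library. Spop itself stood at 25308 to 40631 scaled reads in SPOP_CKI and at 3078 to 3726 in controls. Library SPOP_CKI 3 stood apart, with 1968 of the 14212 tested genes at 0 against 5 to 61 in the other libraries. In addition, 3 libraries went against their label of male: SPOP_CKI 1, SPOP_CKI 3 and Cre_control 5 held 6491, 6578 and 4491 scaled reads of Xist, the RNA of the inactive X chromosome. The Y-linked genes Ddx3y and Uty were at 0 in these 3 libraries, and Ddx3y was at 1173 to 2032 in the other 7 libraries, where Xist was at 0 to 5.31. The count of members that fell and the isoform ratios are given with and without these 3 libraries. For single genes and the other gene lists, mostly SPOP_CKI 3 alone was left out.

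Respiratory complexes II to IV pass electrons from succinate, ubiquinol and cytochrome c to oxygen, and complexes III and IV pump protons across the inner mitochondrial membrane as they do so. Complex V, the ATP synthase, lets protons flow back and makes ATP, and in the beating heart this is the main source of ATP. Several small subunits of complex IV, cytochrome c oxidase, exist in a form made in heart and skeletal muscle and in a common form made in most tissues.

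All tested members had lower mean log2 levels in SPOP_CKI hearts, though not all passed, and none was called higher. Of the 47 members that passed the filter on low values, 20 fell (limma, adjusted p under 0.05), beside 12.3% of the 14212 genes tested. No member rose, beside 10.0% of all genes. All 47 differences were below 0, as were 55.8% of all genes, and the median log2 difference was −0.71 against −0.11 over all genes. By complex, 2 of 4 members of complex II fell, 5 of 9 of complex III, 0 of 1 for cytochrome c, 9 of 16 of complex IV and 4 of 17 of complex V. Medians were −0.75, −0.97, −0.41, −0.84 and −0.47 on the log2 scale in the same order. The authors' deposited table lists 21 of the 48 members as lower (beside 8.01% of its genes) and 0 as higher (beside 8.19%) at an adjusted p under 0.05. Throughout, a fold or difference is on the log2(scaled reads + 1) scale, and each adjusted p is limma's with Benjamini-Hochberg adjustment over all genes tested.

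**Figure D1:**
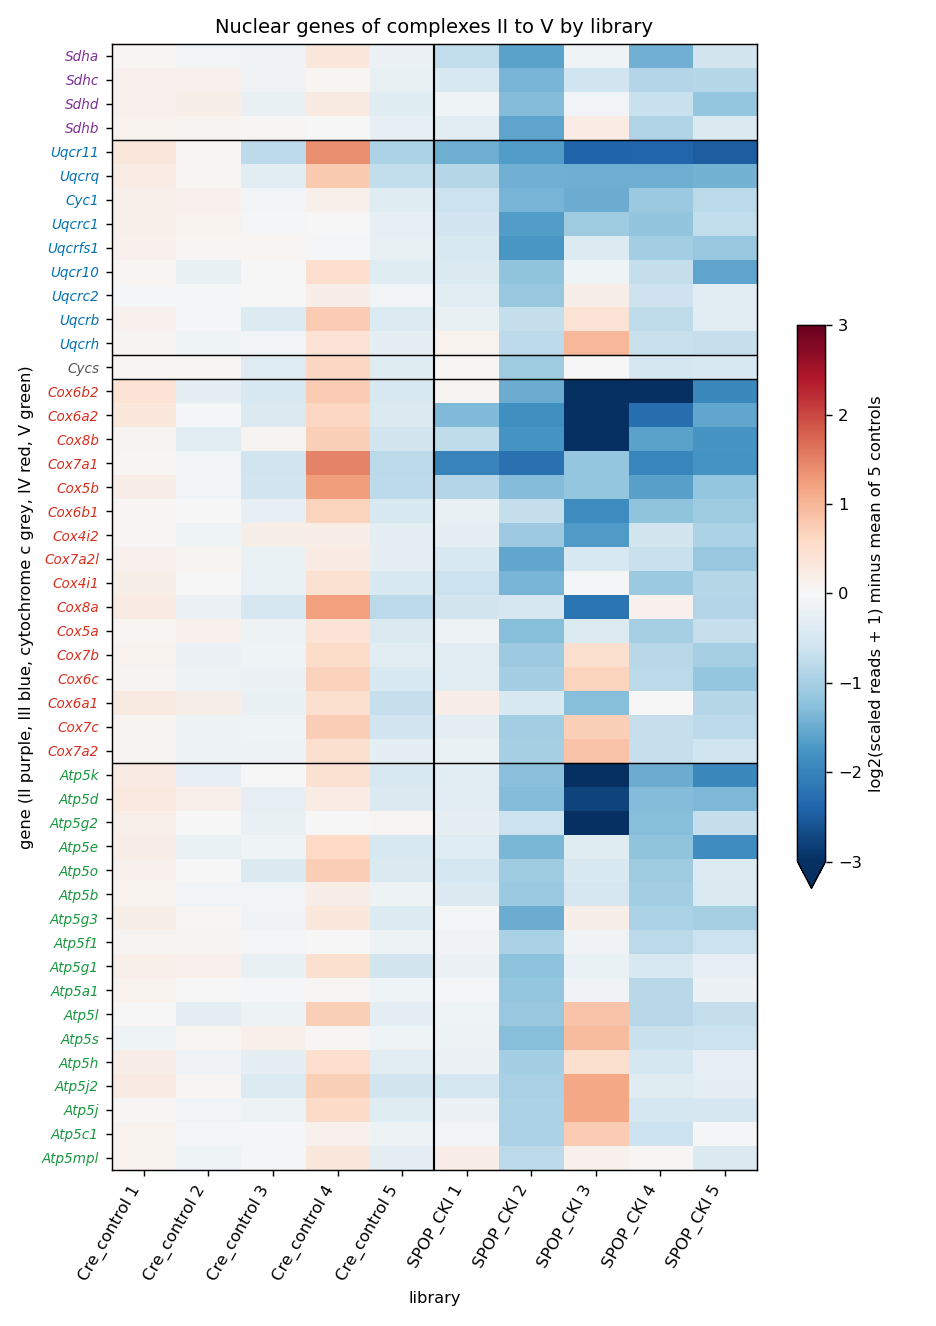
Heat map of the 47 tested members (rows, ordered by complex and then by difference) in each of the 10 libraries (columns). Colour gives the log2(scaled reads + 1) value minus the mean of the 5 controls, clipped below −3, with blue lower and red higher. The SPOP_CKI columns are mostly blue, and SPOP_CKI 3 holds both the darkest blue cells and 8 members above every control. The share of all genes above every control in that library was not counted.

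The fall was uneven between hearts. Members took 1.62%, 1.85%, 1.92%, 2.79% and 3.65% of all reads in SPOP_CKI 2, 5, 4, 1 and 3, and 3.32%, 2.99%, 2.73%, 4.24% and 2.45% in controls 1 to 5, so these shares overlapped. Relative to the control mean, the median member was at −1.20, −0.84 and −0.81 on the log2 scale in SPOP_CKI 2, 4 and 5, and at −0.32 and −0.21 in SPOP_CKI 1 and 3. In the same order, other genes of at most 1500 bases had medians of −0.36, −0.32, −0.80, −0.20 and −0.79. Medians over all tested genes were −0.004, −0.008, −0.03, −0.03 and −0.24. The median over all members was thus close to that of the other short genes in SPOP_CKI 5, and not below either comparison in SPOP_CKI 3. Within SPOP_CKI 3 the complexes differed, with medians of −0.11 for complex II, −0.41 for III, −1.16 for IV and −0.10 for V. Below every control were 45, 42 and 41 of 47 members in SPOP_CKI 2, 4 and 5, but 21 in SPOP_CKI 1 and 21 in SPOP_CKI 3. The share of all genes below every control in each single library was not counted, so these counts have no background beside them. Controls also differed among themselves: Cre_control 4 was the highest control for 38 of 47 members and Cre_control 5 the lowest for 43. For 14 members every SPOP_CKI library lay below every control, beside 12.3% of all genes. No member lay wholly above the controls, beside 9.01% of all genes.

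Single libraries moved the count of members that fell. Without SPOP_CKI 3 it was 34 of 47 (beside 17.4% of genes), and all 20 calls were among them. Without Cre_control 1, 2, 3 or 4, or SPOP_CKI 4, it was 10, 12, 12, 11 and 13, and the share over all genes was not counted there. The 10 calls lost without Cre_control 1 were those of Sdha, Cox4i1, Cox4i2, Cox5a, Cox5b, Cox6b1, Cox7a2l, Atp5b, Atp5e and Atp5k. All calls lost without any other library were among these, at 8 without Cre_control 2 or 3, 9 without Cre_control 4, 1 without Cre_control 5 or SPOP_CKI 1, and 6, 7 and 5 without SPOP_CKI 2, 4 and 5. The other 10 calls held whichever library was left out. Without the 3 libraries that held Xist reads it was 39 of 47 with a median of −1.06, beside 17.1% of genes. SPOP_CKI 3 was itself 1 of the 3 libraries. The libraries with Xist reads were thus the SPOP_CKI libraries whose members lay nearest the controls, and the control that was lowest for 43 of 47 members. Among libraries with Xist reads the median member difference was 0.05, against −1.06 among those without. Of the controls, Cre_control 5 alone held Xist reads, so genotype and the level of that single heart cannot be told apart there.

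**Figure D2:**
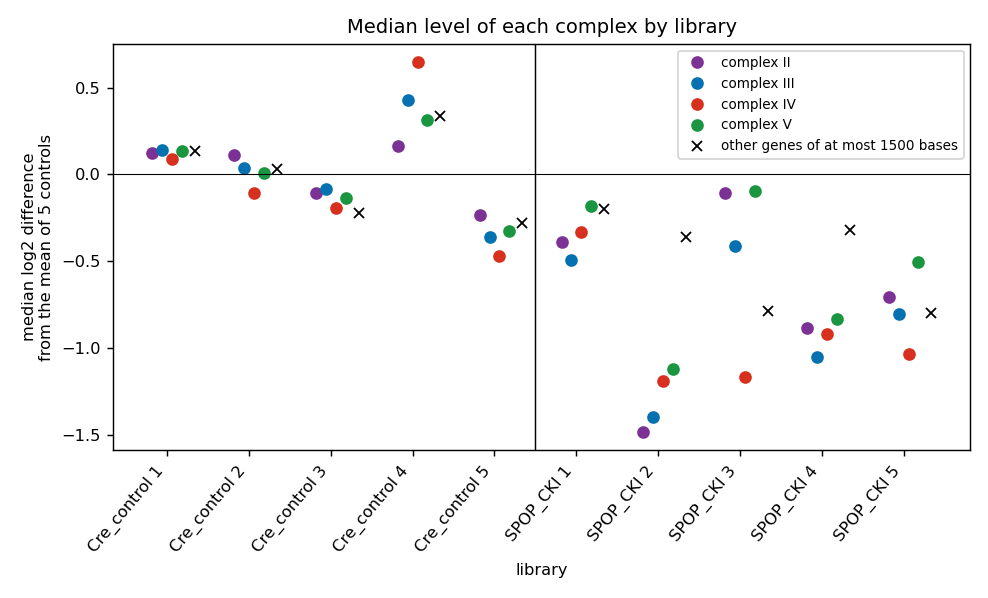
Median log2 difference from the mean of the 5 controls (y axis) for complexes II, III, IV and V in each library (x axis), with 779 other genes of at most 1500 bases as crosses. Complexes II to V lie between −1.48 and −0.50 in SPOP_CKI 2, 4 and 5. In SPOP_CKI 3 complexes II and V lie near −0.10, complex III at −0.41 and complex IV at −1.16. The crosses lie at −0.80 in SPOP_CKI 5 and −0.79 in SPOP_CKI 3, and between −0.36 and −0.20 in SPOP_CKI 1, 2 and 4.

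Complex II, succinate dehydrogenase, joins the citric acid cycle to the respiratory chain. Sdhc, a membrane anchor subunit, stood at 5224, 2744, 4724, 3925 and 3942 scaled reads in SPOP_CKI 1 to 5 and at 7872, 7869, 6674, 7481 and 6134 in controls 1 to 5. The groups did not overlap, and Sdhc fell by 0.84 on the log2 scale (SE 0.19, adjusted p = 0.01). With each library centred by the GC content of its genes, Sdhc was at −0.64 and no longer passed. The catalytic flavoprotein gene Sdha was at 13069, 7160, 19861, 8004 and 14915 in SPOP_CKI and at 22816, 20666, 20277, 27010 and 19213 in controls. SPOP_CKI 3 lay among the controls for Sdha, and the other 4 libraries lay below them. Sdha fell by 0.90 (SE 0.27, adjusted p = 0.0366) and kept its call in 9 of 20 alternative settings. Sdhb, the iron-sulfur subunit, had a difference of −0.60 (adjusted p = 0.151) and the second anchor gene Sdhd −0.66 (adjusted p = 0.0877). Both passed when SPOP_CKI 3 was left out (adjusted p = 0.0244 and 0.0233).

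Complex III, the cytochrome bc1 complex, carried the largest called change of all members, in a small subunit. Uqcr11 (ENSMUSG00000020163, mm10 chromosome 10, 80402997 to 80406830), a small subunit gene, stood at 1124, 976, 587, 596 and 559 scaled reads in SPOP_CKI 1 to 5. Controls 1 to 5 were at 3860, 3197, 1803, 8181 and 1626. No SPOP_CKI library reached the lowest control, and Uqcr11 fell by 2.08 on the log2 scale (SE 0.41, adjusted p = 0.00564), a 4.24-fold fall. Another small subunit gene, Uqcrq (chromosome 11, 53427922 to 53430831), was at 4633, 3085, 3042, 3014 and 3122 against 9781, 8707, 6624, 14401 and 5056. Uqcrq fell by 1.33 (SE 0.26, adjusted p = 0.00569). In both genes the spread among controls, with Cre_control 4 highest, exceeded that among SPOP_CKI hearts.

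Of the redox and core subunit genes of complex III, Cyc1, Uqcrc1 and Uqcrfs1 fell as well, and Uqcrc2 did not pass. Cyc1 (chromosome 15, 76343523 to 76346260), which encodes cytochrome c1, was at 8455, 5055, 4707, 6137 and 7599 scaled reads in SPOP_CKI and at 14720.5, 14621, 12501, 14810 and 10367 in controls. It fell by 1.09 (SE 0.20, adjusted p = 0.00414) with no overlap. Cyc1, with 60.5% GC, was at −0.21 after GC centring and no longer passed (adjusted p = 0.659, with 5.56e-06 to 0.659 over its 20 alternatives). The core protein gene Uqcrc1 fell by 1.04 (SE 0.21, adjusted p = 0.00664), from 22456 ± 2388 to 11212 ± 3137 (SD, n = 5), and was at −0.65 without a call after GC centring. Uqcrfs1, the Rieske iron-sulfur protein gene, fell by 0.97 (SE 0.24, adjusted p = 0.017), from 15520.5 ± 1437 to 8359.7 ± 2938, and was at −0.54 without a call after centring by gene length. The other core gene, Uqcrc2, did not pass, at 8743 ± 2815 against 11418 ± 924 (difference −0.44, adjusted p = 0.167). Of its exon bases 19.7% lie opposite Pdzd9, whose reads could not be told apart without a strand setting. The differences nearest 0 in complex III were those of Uqcrb (−0.32, adjusted p = 0.417) and the hinge protein gene Uqcrh (−0.21, adjusted p = 0.668). For Uqcrh, SPOP_CKI 3 held 16685 scaled reads against 6836 to 11200 in controls. Uqcr10 was at −0.81 (adjusted p = 0.054).

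Cytochrome c, the soluble carrier between complexes III and IV, is encoded by Cycs in somatic tissues. Cycs was at 6922, 3231, 6718, 4693 and 4875 scaled reads in SPOP_CKI and at 7109, 7094, 5189, 10493 and 5257 in controls. The groups overlapped, and the difference of −0.41 (SE 0.26, 95% interval −0.97 to 0.15) did not pass (adjusted p = 0.259).

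**Figure D3:**
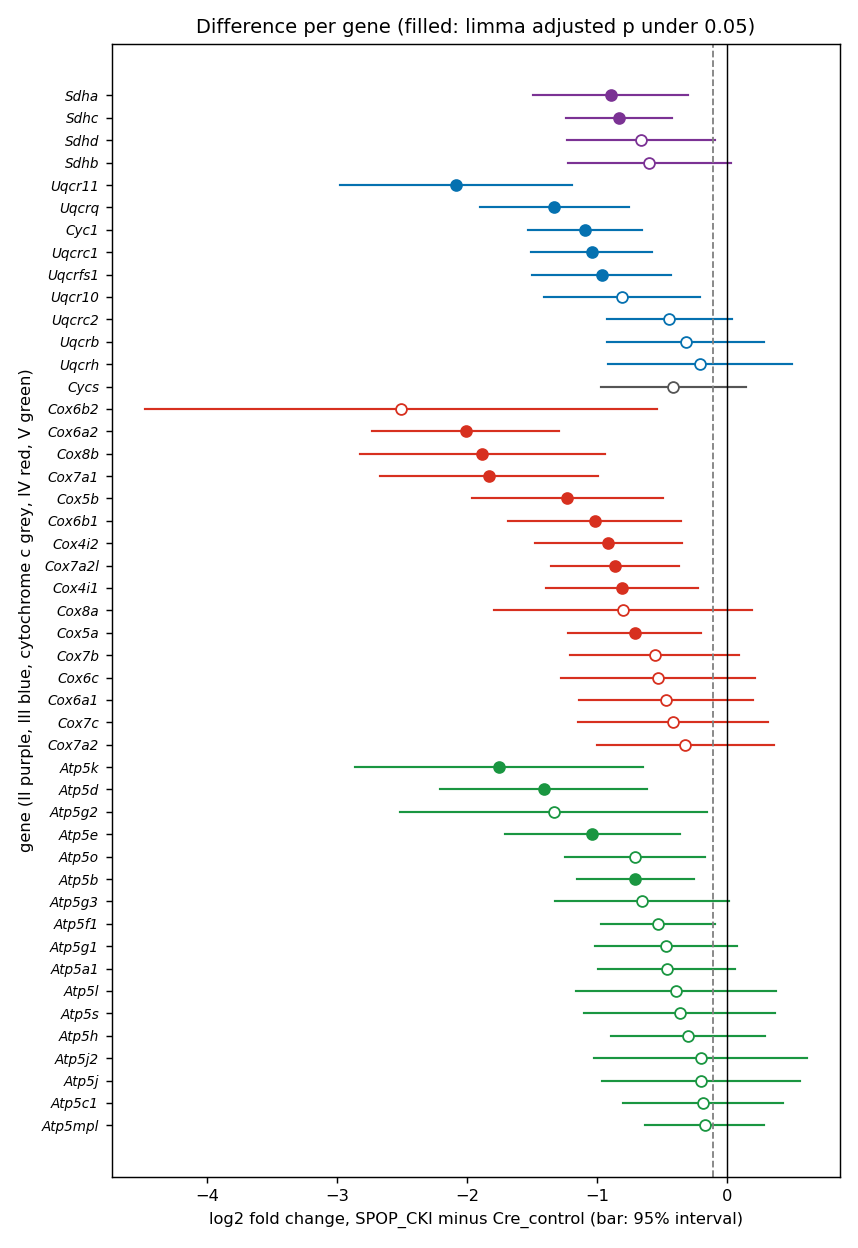
Log2 difference, SPOP_CKI minus Cre_control (x axis), of each tested member (rows) with its 95% interval. Filled points passed at an adjusted p under 0.05 and the dashed line marks the median of all tested genes, −0.11. All 47 points lie below 0, from −2.51 for Cox6b2 to −0.17 for Atp5mpl.

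In complex IV the forms of heart and muscle fell further than the common forms of the same subunits. Cox6a2 (ENSMUSG00000030785, mm10 chromosome 7, 128205435 to 128206387), the heart form of subunit 6A, stood at 6840, 4807, 2071, 3578 and 5807 scaled reads in SPOP_CKI 1 to 5. Controls 1 to 5 were at 21523, 16496, 12833, 26369 and 12664. The highest SPOP_CKI library was below the lowest control, and Cox6a2 fell by 2.01 on the log2 scale (SE 0.33, adjusted p = 0.00235), 4.04-fold. Its common counterpart Cox6a1 (chromosome 5, 115345642 to 115348981) was at 1776, 1131, 635, 1567 and 856 against 1856, 1736, 1321, 2166 and 953. Those groups overlapped, and the Cox6a1 difference was −0.47 (95% interval −1.14 to 0.20, adjusted p = 0.28). Of the Cox6a2 exon bases 10.3% lie opposite Itgad.

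Subunit 7A gave the same order. The heart form Cox7a1 (ENSMUSG00000074218, chromosome 7, 30184144 to 30186078) was at 1282, 1090, 2293, 1322 and 1488 scaled reads in SPOP_CKI and at 5265, 4838, 3391, 14388 and 2918 in controls. Cox7a1 fell by 1.83 (SE 0.38, adjusted p = 0.00771), 3.56-fold, with no overlap. The common form Cox7a2 (chromosome 9, 79755361 to 79759878) was at 4958, 2876, 10405, 3563 and 3775 against 6031, 5173, 5166, 8017 and 4714. SPOP_CKI 3 was above every control for Cox7a2 and its difference was −0.32 (adjusted p = 0.473), or −0.62 without SPOP_CKI 3 (adjusted p = 0.036). Cox7a2l, a related protein that joins complexes III and IV, fell by 0.86 (SE 0.23, adjusted p = 0.0191), and was at −0.44 without a call after centring by gene length.

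For subunit 8, the heart form Cox8b (ENSMUSG00000025488, chromosome 7, 140898945 to 140900446) was at 3577, 1804, 539, 2004 and 1788 scaled reads in SPOP_CKI and at 6447, 4830, 6484, 10096 and 4188 in controls. Cox8b fell by 1.88 (SE 0.43, adjusted p = 0.0113), 3.69-fold, with no overlap. The common form Cox8a (chromosome 19, 7215158 to 7217616) was at 909, 933, 289, 1458 and 724 against 1594, 1177, 943, 3144 and 760. SPOP_CKI 3 was the lowest library for both forms. The Cox8a difference, −0.81 (SE 0.45), did not pass (adjusted p = 0.218).

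**Figure D4:**
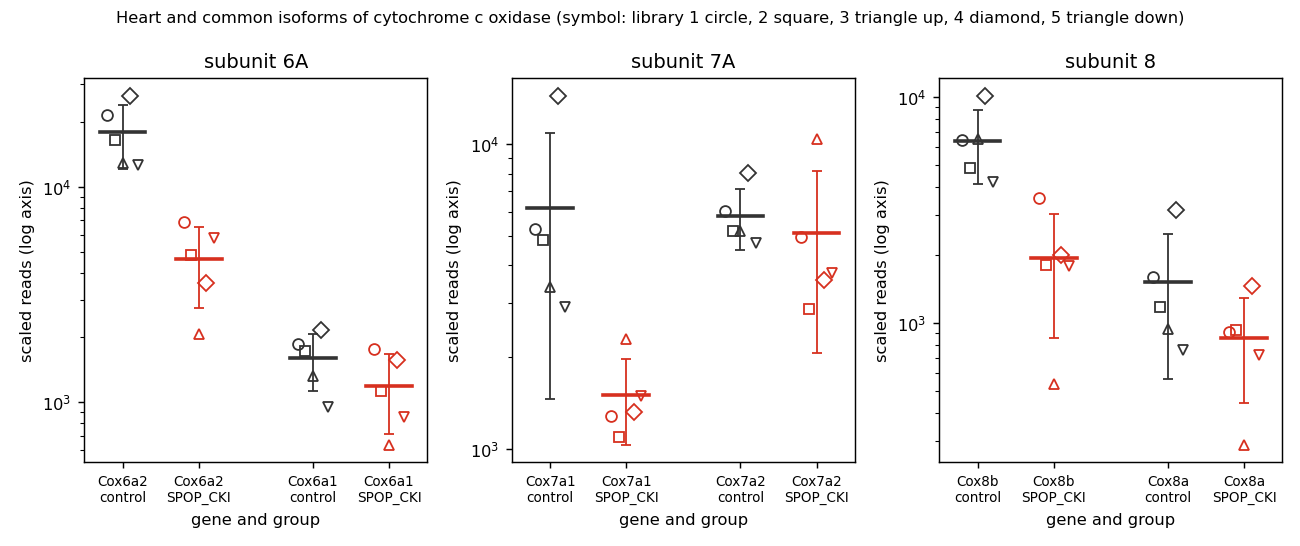
Scaled reads on a log axis (y axis) of the heart and common forms of subunits 6A, 7A and 8 in controls (black) and SPOP_CKI (red), with a symbol for each library, the mean as a thick line and the SD as a bar (n = 5). Every SPOP_CKI point lies below every control point for Cox6a2, Cox7a1 and Cox8b, and the groups overlap for Cox6a1, Cox7a2 and Cox8a.

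The ratio of heart to common form within each library tested this contrast directly. The Cox6a2 to Cox6a1 ratio was 3.85, 4.25, 3.26, 2.28 and 6.78 in SPOP_CKI 1 to 5 and 11.6, 9.50, 9.72, 12.2 and 13.3 in controls 1 to 5. It differed by −1.54 on the log2 scale (95% interval −2.12 to −0.92, exact two-sided permutation p = 0.00794, adjusted over 5 pairs 0.0198). The Cox7a1 to Cox7a2 ratio was 0.259, 0.379, 0.220, 0.371 and 0.394 against 0.873, 0.935, 0.656, 1.79 and 0.619, a difference of −1.51 (interval −2.24 to −0.74, exact permutation p = 0.00794, adjusted 0.0198). For both ratios every SPOP_CKI library was below every control, and p was the smallest that 5 libraries against 5 allow. Without the 3 libraries with Xist reads the 7A ratio differed by −1.38 and no longer passed (exact permutation, adjusted p = 0.0714). Every remaining SPOP_CKI library was still below every remaining control for the 7A ratio. Fewer arrangements were left for all pairs. The Cox6a2 to Cox6a1 and Cox8b to Cox8a ratios passed in the same libraries (exact permutation, adjusted p = 0.0476 for each).

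The Cox8b to Cox8a ratio was 3.94, 1.93, 1.86, 1.37 and 2.47 in SPOP_CKI against 4.05, 4.10, 6.87, 3.21 and 5.51 in controls, and only SPOP_CKI 1 lay within the control range. It differed by −1.08 (interval −1.83 to −0.38, exact permutation p = 0.0159, adjusted 0.0265). That call was lost without SPOP_CKI 2, 3 or 4 or without Cre_control 3 or 5, with differences from −1.04 to −0.91 (exact permutation, adjusted p = 0.0529 to 0.0661). Taken per kilobase of exon in each library and averaged over the 5 controls, the ratio of heart to common form was 11.6 for 6A, 1.72 for 7A and 7.19 for subunit 8. The same averages over the 5 SPOP_CKI libraries were 4.22, 0.573 and 3.51. The mean levels of Cox7a1 and Cox7a2 were 11514 and 6166 scaled reads per kilobase in controls and 2794 and 5419 in SPOP_CKI.

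Isoform pairs of subunits 4 and 6B had a minor form at low level. Cox4i2, an oxygen-responsive form of subunit 4, was at 203, 116, 74.4, 167 and 126 scaled reads in SPOP_CKI and at 251, 225, 277, 281 and 204 in controls. It fell by 0.91 (SE 0.26, adjusted p = 0.0279), and the main form Cox4i1 fell by 0.81 (SE 0.27, adjusted p = 0.0484), from 23009 ± 5566 to 13518 ± 5187 (SD, n = 5). The ratio of these forms differed by −0.10 (interval −1.16 to 0.64, exact permutation p = 0.944) and turned to 0.29 without SPOP_CKI 3, and the interval holds differences of either sign. The Cox4i1 call held in 5 of 20 settings, and Cox4i2 was at −0.29 without a call after GC centring. Cox6b2, known from testis, was at 41.6, 13.2, 0, 1.74 and 9.45 against 53.1, 32.2, 28.3, 67.3 and 27.9. Its difference of −2.51 (SE 0.90) did not pass (adjusted p = 0.066), while the common form Cox6b1 fell by 1.02 (SE 0.30, adjusted p = 0.0333). Their ratio differed by −1.49 (exact permutation p = 0.0476, adjusted 0.0595). It was −0.34 with a pseudocount of 10 and −0.67 with quantile scaling (exact permutation, adjusted p = 0.188 and 0.308, with 0.00992 to 0.308 over its alternatives).

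The remaining subunits of complex IV were divided. Cox5b, a zinc-binding subunit at the matrix face, was at 2560, 1897, 2111, 1518 and 2096 scaled reads in SPOP_CKI and at 5394, 4475, 3145, 11194 and 2719 in controls. Cox5b fell by 1.23 (SE 0.33, adjusted p = 0.0233) with no overlap, and its partner Cox5a by 0.71 (SE 0.24, adjusted p = 0.0489, called in 7 of 20 settings). Small membrane subunits Cox6c, Cox7b and Cox7c did not pass, with differences of −0.53, −0.56 and −0.42. These 3 genes had SPOP_CKI 3 as their highest SPOP_CKI library and passed without it (adjusted p = 0.0236, 0.0141 and 0.0499). Cox7b2, a form of subunit 7B known from testis, was the member that failed the filter: it was at 29.8 scaled reads in SPOP_CKI 3 and at 0 to 3.61 in the other 9 libraries.

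Upstream sequences of the isoform genes are shown because the heart and common forms moved by different amounts, and that of Uqcr11 because it had the largest called change. Each is the 150 bases before the RefSeq start in GRCm38.p6, 5′ to 3′ on the gene's strand, and capitals mark matches to a searched motif. RefSeq windows were found for 35 of the 48 members, and Cox6a2 and Cyc1 were not among them.
Cox7a1 (chr7:30184021-30184170, plus strand): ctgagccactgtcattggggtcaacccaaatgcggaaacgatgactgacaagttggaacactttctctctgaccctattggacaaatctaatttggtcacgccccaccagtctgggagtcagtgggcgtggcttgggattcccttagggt
Cox8b (chr7:140900447-140900596, minus strand): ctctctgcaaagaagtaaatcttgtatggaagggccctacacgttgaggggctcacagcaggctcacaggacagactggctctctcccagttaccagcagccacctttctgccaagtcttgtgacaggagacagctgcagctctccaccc
Cox7a2 (chr9:79759854-79760003, minus strand): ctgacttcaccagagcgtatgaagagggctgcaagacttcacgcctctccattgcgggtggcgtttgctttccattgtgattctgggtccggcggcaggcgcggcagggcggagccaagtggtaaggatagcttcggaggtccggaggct
Cox6a1 (chr5:115348959-115349108, minus strand): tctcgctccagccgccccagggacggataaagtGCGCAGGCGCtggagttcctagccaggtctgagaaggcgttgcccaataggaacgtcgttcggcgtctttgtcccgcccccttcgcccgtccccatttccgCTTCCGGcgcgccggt
Cox8a (chr19:7217617-7217766, minus strand): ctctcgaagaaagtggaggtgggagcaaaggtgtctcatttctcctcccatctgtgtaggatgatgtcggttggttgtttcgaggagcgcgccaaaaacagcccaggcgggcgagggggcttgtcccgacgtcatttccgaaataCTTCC
Uqcr11 (chr10:80406822-80406971, minus strand): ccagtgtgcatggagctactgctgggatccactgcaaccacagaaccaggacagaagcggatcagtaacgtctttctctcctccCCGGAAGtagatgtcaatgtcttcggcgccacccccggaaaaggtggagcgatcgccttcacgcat

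Searched on both strands from 250 bases upstream into the first transcribed bases were the ETS motif CCGGAAG (bound by GABPA), the NRF1 motif, the estrogen-related receptor motif TCAAGGTCA, the YY1 motif AAGATGGC and the MEF2 motif. The ETS motif was in 12 of 35 members (34.3%) against 8.86% of 32851 RefSeq promoters of equal length, and the NRF1 motif in 10 (28.6%) against 4.6%. The estrogen-related receptor motif was in Atp5g3 and Sdhd (5.71% against 0.423%). YY1 letters were in 2 members (5.71% against 2.75%), and the MEF2 motif was in Cox5b (2.86% against 3.69%). Among common forms, Cox6a1 held an ETS match 16 bases and NRF1 matches 117 and 162 bases upstream. In Cox8a an ETS match began 5 bases upstream and ran past the printed end. Cox7a1, Cox8b and Cox7a2 held none of the 5 motifs, and Uqcr11 held an ETS match 66 bases upstream. By count, ETS was in 4 of 14 that fell and 8 of 21 that did not pass, NRF1 in 3 of 14 and 7 of 21. A match is a run of letters, and binding was not measured.

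Complex V had the smallest share of calls among the 4 complexes, 4 of 17, or 10 of 17 without SPOP_CKI 3 (beside 12.3% and 17.4% of all genes). In its catalytic core Atp5b passed and Atp5a1 did not, and no difference between these genes was tested. Atp5b, the catalytic beta subunit of the F1 head, was at 62363, 38596, 58688, 40667 and 61768 scaled reads in SPOP_CKI and at 89826, 79215, 79510, 96480 and 75380 in controls. Atp5b fell by 0.71 (SE 0.21, adjusted p = 0.0303) with no overlap and was called in 11 of 20 settings. Its alpha partner Atp5a1 was at 68674, 31631, 66286, 39657 and 62352 against 76022, 71545, 68886, 73022 and 65310. SPOP_CKI 1 and 3 lay within the control range for Atp5a1, and the difference of −0.47 (95% interval −0.995 to 0.064) did not pass (adjusted p = 0.184). The gamma subunit gene Atp5c1, the rotor shaft, had a difference of −0.19 (95% interval −0.80 to 0.43, adjusted p = 0.649), with 31300 scaled reads in SPOP_CKI 3 against 16441 to 19918 in controls.

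Small subunits of the F1 stalk and of the membrane part made up the other calls. Atp5d, the delta subunit (chromosome 10, 80138632 to 80145818), was at 7022, 3618, 1309, 3615 and 3532 scaled reads in SPOP_CKI and at 10954, 9901, 7558, 10431 and 6662 in controls. SPOP_CKI 1 overlapped the controls, and Atp5d fell by 1.41 (SE 0.36, adjusted p = 0.0183). The epsilon subunit gene Atp5e fell by 1.04 (SE 0.31, adjusted p = 0.033, called in 11 of 20 settings). Atp5k, subunit e of the membrane part, was at 1933, 1023, 180, 877 and 641 against 2910, 2067, 2490, 3387 and 1750. It fell by 1.76 (SE 0.51, adjusted p = 0.0301) and by 1.26 without SPOP_CKI 3. Atp5o, the peripheral stalk subunit that confers oligomycin sensitivity, was at −0.71 (adjusted p = 0.0598), and 47.9% of its exon bases were shared with other annotated entries. Differences nearest 0 were those of Atp5mpl (−0.17) and Atp5c1.

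The c-ring, which turns with proton flow, is encoded by 3 genes whose mature protein is the same. Atp5g1 was at 7835 ± 1986 scaled reads in SPOP_CKI and 10797 ± 2833 in controls (SD, n = 5, difference −0.47, adjusted p = 0.196). Atp5g3 was at 12303 ± 5924 against 17898 ± 3266 (−0.66, adjusted p = 0.143). Atp5g2 was at 2878, 2252, 259, 1459 and 2141 against 3886, 3540, 3005, 3563 and 3675, with no overlap but a difference of −1.34 that did not pass (SE 0.54, adjusted p = 0.096). Without SPOP_CKI 3 its spread narrowed and Atp5g2 passed, with a smaller difference of −0.73 (adjusted p = 0.0123). Of the summed reads of these 3 genes, Atp5g1 gave 36.6% ± 6.11 in SPOP_CKI and 33.1% ± 2.64 in controls, Atp5g2 9.35% ± 5.86 and 11.3% ± 2.35, and Atp5g3 54.1% ± 9.40 and 55.6% ± 1.48. Atpif1, the inhibitor of the ATP synthase, is no member and did not pass (−0.47, adjusted p = 0.312).

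Per kilobase of exon the order of the most abundant members changed. In controls Cox6a2 was at 26437 ± 8696 scaled reads per kilobase, Atp5a1 at 22634 ± 1300, Atp5b at 19845 ± 2068, Cox8b at 17803 ± 6369 and Cox4i1 at 14845 ± 3591 (SD, n = 5). In SPOP_CKI Atp5a1 was at 17136 ± 5389, Atp5b at 12371 ± 2779, Atp5c1 at 9200 ± 4449, Cox4i1 at 8722 ± 3346 and Cox6a2 at 6795 ± 2747. In both groups each of these levels overlapped its neighbour in the order within their SDs.

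Across members the difference went with base composition, as it did across all genes. The 20 members that fell had a median transcript GC content of 54.9% and the 27 others 48.6%. Of 23 members with at least 52% GC, 15 fell, with a median difference of −1.04, beside 20.1% and −0.53 for all 5954 such genes. Of 22 members under 50% GC, 5 fell, with a median of −0.43, beside 5.25% and 0.20 for 6629 genes. Spearman's rho between difference and GC was −0.67 over 47 members and −0.44 over all genes, and −0.42 and −0.31 without SPOP_CKI 3. These points share the same 10 libraries, and genes are not independent replicates.

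**Figure D5:**
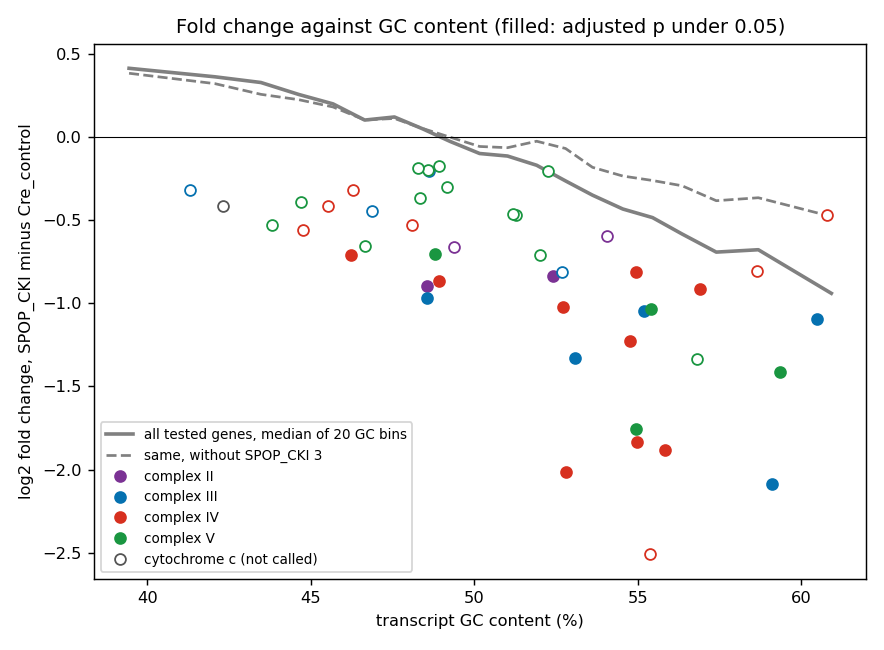
Log2 difference, SPOP_CKI minus Cre_control (y axis), against transcript GC content in percent (x axis) for the tested members, coloured by complex and filled where the adjusted p was under 0.05. Lines give the median of all tested genes in 20 GC bins, with and without SPOP_CKI 3. Most members lie below the line of genes of like GC content, and Cox6a1 lies above it.

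In SPOP_CKI 3 other genes of at least 52% GC had a median of −1.23 and genes under 50% GC one of 0.44, against −0.32 to −0.16 and 0.16 to 0.25 in the other SPOP_CKI libraries. Members of the same GC ranges in SPOP_CKI 3 were at −1.46 and 0.30. After each library was centred by GC content, 14 members fell, 13 of them among the 20, with a median of −0.65, and none rose (beside 8.67% of genes lower and 9.32% higher). The isoform ratios were then −2.23 for 6A, −0.99 for 7A and −1.32 for subunit 8, and all 3 passed (exact permutation, adjusted p = 0.0198, 0.0198 and 0.0265). Cyc1, Uqcrc1, Cox5b, Sdhc, Cox4i2, Atp5e and Cox4i1 lost their calls. Members were short, with a median of 1675 exon bases against 4221 over all genes. Other genes of at most 1500 bases, 779 in number, had a median of −0.54 and 20.9% fell. After centring by gene length 10 members fell, all among the 20, with a median of −0.42, and none rose (beside 11.0% lower and 10.4% higher). The 10 calls lost were those of Sdha, Uqcrfs1, Cox4i1, Cox4i2, Cox5a, Cox5b, Cox6b1, Cox7a2l, Atp5b and Atp5e.

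Of 37 tested assembly factors, 9 fell (24.3%, beside 12.3% of all genes) and 2 rose, a smaller share than the 10.0% of all genes. Their median difference was −0.37, or −0.09 after centring by gene length. Those that fell included Sdhaf1, which helps insert the iron-sulfur clusters of complex II (difference −1.78, SE 0.41, adjusted p = 0.0121), and Higd2a, a complex IV assembly factor (−1.98, SE 0.40, adjusted p = 0.00662). Cox15, which makes heme a for complex IV, fell by 0.75 (SE 0.15, adjusted p = 0.00673), from 665 ± 12.3 to 401 ± 80.0 scaled reads (SD, n = 5). Fmc1, an ATP synthase assembly factor, fell by 1.54 (SE 0.29, adjusted p = 0.00426). The complex IV assembly genes Coa5 and Cox19 rose, by 0.93 (SE 0.20, adjusted p = 0.00896) and 0.86 (SE 0.26, adjusted p = 0.0343). Coa5 was at 4044 ± 1194 against 2084 ± 328, and the Cox19 call held in 12 of 20 settings.

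Subunits made from mitochondrial DNA had lower means, but 1 of 6 passed. That gene was mt-Co2, a core subunit of complex IV, with 2669 to 15234 scaled reads in SPOP_CKI and 14610.4 to 46613 in controls (difference −1.73, SE 0.45, adjusted p = 0.0191). The median of the 6 was −1.29, or −0.83 without SPOP_CKI 3, and mt-Co1, the catalytic core of complex IV, had −0.47 (adjusted p = 0.269). The share of reads from mitochondrial genes was 13.1% to 33.8% in SPOP_CKI and 19.1% to 30.5% in controls.

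Of 16 regulators of these genes, 2 fell (12.5%, beside 12.3% of all genes) and 1 rose, with a median of −0.06. These counts were near or below the shares over all genes. Pprc1, a coactivator of the Ppargc1 family, rose by 1.15 (SE 0.27, adjusted p = 0.012), and the nuclear receptor gene Esrrb fell by 1.07 (SE 0.32, adjusted p = 0.034). Tfb2m, a mitochondrial transcription factor, fell by 0.57 (SE 0.14, adjusted p = 0.017). Ppargc1a, the best known coactivator of mitochondrial genes, had a difference of 0.20 (adjusted p = 0.74), Nrf1 0.29 (adjusted p = 0.181), Gabpa −0.02 (adjusted p = 0.93) and Esrra −1.18 (adjusted p = 0.0877). Esrra passed without SPOP_CKI 3 (adjusted p = 0.0351). Complex I, the entry point for electrons from NADH, is the nearest comparison: 17 of its 38 nuclear genes fell (44.7%, beside 12.3% of all genes) and 0 rose, with a median of −0.85. Without SPOP_CKI 3, 28 of the 38 fell (beside 17.4% of all genes), and without the 3 libraries with Xist reads 37 fell (beside 17.1%). With GC centring 10 fell (beside 8.67%), and with gene length centring 8 (beside 11.0%). No difference between complex I and complexes II to V was tested.

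Markers of some cell types moved with the group too. Over all genes 12.3% fell and 10.0% rose, or 17.4% and 13.7% without SPOP_CKI 3. Of 12 cardiomyocyte markers 3 fell, Myh6, Tnni3 and Myl3, with a median of −0.55, and their summed level was 270538 to 606705 scaled reads in SPOP_CKI and 623757 to 782872 in controls. Of 7 endothelial markers 5 fell (median −0.74, summed level 15236 to 19856 against 24245 to 27314), and 3 of 5 tested markers of activated fibroblasts rose (median 2.58, 3976 to 42386 against 1948 to 2849). Of 2 tested atrial markers 1 rose: Nppa, the atrial natriuretic peptide gene, which is also known to rise in stressed ventricles, rose by 3.22 (SE 0.59, adjusted p = 0.00446). The summed level of the 5 atrial genes in the table was 2753 to 18641 against 240 to 4225, and Myl4 did not pass (−1.68, adjusted p = 0.463). Of 5 erythroid markers 4 fell (summed level 5309 to 8887 against 13967 to 28111), and of 6 immune markers 2 rose, or 1 without SPOP_CKI 3 (4169.6 to 22377 against 4672 to 7809). Of 8 fibroblast markers 1 rose, or 3 without SPOP_CKI 3 (53567 to 104776 against 54743 to 72594). Of 7 smooth muscle and pericyte markers 1 fell (21006 to 36532 against 27701 to 36791). With all libraries in, the fibroblast count and the smooth muscle and pericyte count were near the shares over all genes. Summed levels of those lists and of the immune markers overlapped between groups, and those of the erythroid markers did not. Skeletal muscle markers, summed, were at 8.27 to 103 scaled reads in SPOP_CKI and 20.4 to 53.8 in controls, and fat markers at 232 to 485 and 320 to 621. With GC centring, 1 cardiomyocyte, 2 endothelial, 3 erythroid and 2 smooth muscle and pericyte markers fell (beside 8.67% of all genes). In that setting 3 activated fibroblast markers, 1 atrial, 0 immune and 0 fibroblast markers rose (beside 9.32%). In bulk tissue fewer cells of a type and less RNA per cell cannot be told apart. The part of these markers in the members' fall was not tested.

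Overlap and copies limit some single genes. Of the 48 members, 13 share exon bases with another annotated gene, 5 of them over 10 percent of their length, and the strand setting of the counting is not given. Processed pseudogenes are known for many of these short genes, and how reads with several matches were counted is not given either, so values of single small subunits carry that uncertainty.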

How the data were processed

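Poly(A) RNA of 10 mouse hearts was sequenced, 5 SPOP_CKI and 5 Cre_control by title and genotype. Per the submitters' processing notes, the authors used featureCounts 1.5.0-p3 for counting, DESeq2 1.20.0 for testing, and the mm10 build. Aligner, annotation release and strand setting: not given in the sources used here. Their deposited per-library values are a signal: gene reads over a size factor. Whole reads were recovered for 100% of values (tolerance 0.001). Libraries of a group all differed beyond sampling noise (chi-square over degrees of freedom at least 12.7). The authors also deposited log2 fold changes and p-values, used here only as the authors' own calls.

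Values were tested as log2(value + 1) with limma 3.58.1 (R 4.3.3, trend and robust variances, two-sided, genotype as sole term) over the 14212 genes with at least 10 in at least 5 libraries. The recovered reads were also tested with edgeR 4.0.16 and DESeq2 1.42.0 (17 and 22 members lower, beside 10.5% and 14.3% of genes). Further alternatives were TMM and quantile scaling, no filter, a pseudocount of 10, a replicate term, centring in 20 bins of gene length or GC content, and each library left out. The fits were tested on simulated data. Isoform ratios were compared by exact permutation over libraries, with 95% intervals from the same test. GC content came from GENCODE M21 (GRCm38), where 99.9% of gene IDs were found, and upstream sequences from RefSeq (GRCm38.p6).

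Members, gene lists, isoform pairs and the naming rule were chosen with earlier results of these data known. The rule names all of complex II, the redox and core genes of III, Cycs, isoforms of complex IV, F1 and c-ring genes. It adds, per complex, up to 3 called members with the largest and 2 members with the smallest change, and members that failed the filter. Genes named from the other lists, Uqcr10, Cox6c and Cox7c were chosen after their values were seen. Leaving out the libraries with Xist reads, comparing genotypes among them, and GC centring of ratios were added after seeing the data.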

Additional observations from a re-analysis of the deposited data

Results flagged for a closer look

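In 9 of the 106 sets of 5 libraries examined, the highest or lowest library lay farther from its nearest neighbour than Dixon's 95% critical value of 0.71 of the range allows, and chance gives about 1 in 20 sets. In SPOP_CKI, 4 of the 9 were in library SPOP_CKI 3. These were Cox7a2 at 10405 scaled reads, Atp5j2 at 18863, Atp5j, the coupling factor 6 gene, at 16299, and the testis form Cox7b2 at 29.8, each the highest of its group. Uqcrq was highest in SPOP_CKI 1, at 4633 scaled reads.

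Among controls, 3 of the sets had Cre_control 4 as the high library, with Cox7a1 at 14388 scaled reads, Uqcrc2 at 13046 and Atp5l at 9093. Sdhb had a low library, Cre_control 5, at 12663 scaled reads.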

How the results depend on the processing

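The count of members that fell was 20, and no member was called higher under any alternative run. It was 17 with edgeR (beside 10.5% of genes), 22 with DESeq2 (14.3%), 14 with GC centring (8.67%) and 10 with gene length centring (11.0%). Without the 3 libraries with Xist reads it was 39 (17.1%). TMM scaling gave 18, quantile scaling 15, no filter 17 and a pseudocount of 10 gave 22. Leaving out a library gave 10 to 34, the last without SPOP_CKI 3 (17.4%). For the other alternatives the share over all genes was not counted. Uqcr11, Uqcrq, Cox6a2, Cox7a1, Cox8b and Atp5d were called in all 20 alternatives. The replicate numbers did not pair the libraries: same-numbered libraries correlated at 0.03 to 0.16, and 2 of 5 correlated best with their own number. With a replicate block the count was 17.

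With 1 library left out, the log2 ratio differences ranged from −1.75 to −1.36 for Cox6a2 to Cox6a1, −1.65 to −1.26 for Cox7a1 to Cox7a2, −1.29 to −0.91 for Cox8b to Cox8a, −0.27 to 0.29 for Cox4i2 to Cox4i1 and −1.94 to −1.004 for Cox6b2 to Cox6b1. The Cox6b2 to Cox6b1 ratio was −0.34 with a pseudocount of 10 and −0.67 with quantile scaling, against −1.49, and did not pass in these 3. It passed without SPOP_CKI 1 (−1.94, adjusted exact permutation p = 0.00992). Without the 3 libraries with Xist reads, Cox7a1 to Cox7a2 was −1.38 and no longer passed, Cox6b2 to Cox6b1 was −1.44 and passed, and Cox4i2 to Cox4i1 was 0.31. The last was 0.14 with GC centring. With 7 libraries, fewer arrangements were left for all pairs, and Cox6a2 to Cox6a1 and Cox8b to Cox8a still passed (exact permutation, adjusted p = 0.0476 for each). The cause of these changes was not tested.

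Directions turned for members that had not passed. With gene length centring Uqcrb was at 0.11, Cox7c at 0.0049, Atp5h at 0.051, Atp5mpl at 0.25, Cox7a2 at 0.10, Atp5c1 at 0.13 and Uqcrh at 0.22. With quantile scaling Atp5a1 was at 0.051, Atp5c1 at 0.087 and Atp5j2 at 0.030. Cox6a1 was at 0.41 with GC centring. With 1 library left out Atp5c1 ranged from −0.43 to 0.0028, the last without SPOP_CKI 2. The cause was not tested. Few reads limit the precision of Cox6b2 and Cox7b2.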
